A study of Danio rerio with 16 samples.

Results

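The sarcomere genes of muscle are described here in whole zebrafish larvae at 4 exposures. The members are the rows of the count files whose Ensembl identifier carries 1 of 58 zebrafish names: titin, nebulin, myosin heavy and light chains, actins, troponins, tropomyosins, proteins of the Z-disc and M-band, and several genes of muscle calcium handling and energy supply. Of these names, 39 were found under the same symbol, read without regard to case (42 rows). Another 16 were found only through the human form of the symbol (23 rows), and 3 (mylz3, smyhc3 and vmhc) had no matching row. Some of the 42 rows, such as MYH7 and NEB, also carry a human-form symbol in capitals. This gave 65 genes of 32105 in the files. By general knowledge of fish muscle, 26 of them are fast skeletal muscle genes, 8 are slow skeletal muscle genes, 8 are cardiac genes and 23 are shared between fibre types or mixed. All 65 passed the filter on low counts, which 21372 genes passed in all. A symbol in human form cannot be assigned to either of a pair of zebrafish duplicates, so rows that share a symbol carry their Ensembl identifier. The name TNNI2 is shared by 6 rows although only 1 tnni2 gene was on the list of names. The names ryr1b, tnnt2a, tnni1b, myl1 and myh6 each matched 2 rows, so some rows may not be genes of the list.

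Every library came from whole larvae of 5 days that had been in 0.1% DMSO alone, the solvent control, or in PCB153 at 0.1, 1 or 10 µM, from hour 4 to hour 120 after fertilisation, with 4 libraries a group. PCB153 is a persistent polychlorinated biphenyl that is a poor ligand of the aryl hydrocarbon receptor. The labels name no strain, no clutch and no number of larvae per library, so p-values here measure the spread between these libraries. RNA of a whole larva mixes all tissues, and more muscle cells cannot be told apart from more RNA per muscle cell.

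The sarcomere is the contractile unit of striated muscle. Thick filaments of myosin slide along thin filaments of actin, tropomyosin and troponin, the Z-disc anchors the thin filaments, and titin spans from the Z-disc to the M-band, where the thick filaments are cross-linked. In a zebrafish larva most trunk muscle is fast muscle, a superficial layer is slow muscle, and the heart uses its own myosins and troponins. Calcium leaves the sarcoplasmic reticulum through the ryanodine receptor and is pumped back by a calcium ATPase, and creatine kinase and parvalbumin serve ATP supply and calcium buffering.

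The libraries held between 8069225 (PCB153 1 µM, replicate 1) and 15531744 gene counts. The share of uniquely placed reads outside annotated genes differed between groups. It was 31.4% to 35.5% in DMSO, 36.2% to 38.6% at 0.1 µM, 35.1% to 40.4% at 1 µM and 31.7% to 33.3% at 10 µM. It did not overlap between 10 µM and the lower concentrations, or between DMSO and 0.1 µM. In these comparisons concentration and that share cannot be told apart. Over all genes tested 9.90% rose and 8.45% fell at 10 µM against DMSO. Of 9 epidermis markers 7 fell at 10 µM against DMSO and none rose, and their summed level was 11600 to 13400 counts per 1000000 (CPM) in DMSO and 8500 to 9480 CPM at 10 µM. Of 7 tested cartilage and bone markers 4 fell in that comparison, with a summed level of 4330 to 4500 CPM in DMSO and 3220 to 3920 CPM at 10 µM, and 1 further marker of that list was at 0 in every library. Of 8 liver markers 3 fell and none rose (1860 to 2250 CPM in DMSO and 1320 to 1640 CPM at 10 µM), and of 10 neuron markers 2 rose and 1 fell (1330 to 1500 and 1490 to 1530 CPM). Of 12 smooth muscle markers 1 rose and 1 fell, and no exocrine pancreas, lens or erythrocyte marker passed there. Since CPM is relative to the whole larva's RNA, the part of these tissues in the muscle results was not tested.

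Sarcomere genes took 9.84% ± 0.393 of gene counts in DMSO, 9.59% ± 0.462 at 0.1 µM, 10.5% ± 0.742 at 1 µM and 10.6% ± 0.402 at 10 µM (SD, n = 4 each). Fast muscle genes made up 4.85% ± 0.116 of gene counts in DMSO, 4.50% ± 0.218 at 0.1 µM, 4.75% ± 0.455 at 1 µM and 5.08% ± 0.0950 at 10 µM (SD, n = 4 each). The 4 libraries at 10 µM, from 5.0% to 5.2%, lay above the 4 control libraries, from 4.69% to 4.96%. Slow muscle genes held 0.154% ± 0.00241 in DMSO, 0.157% ± 0.0134 at 0.1 µM, 0.161% ± 0.0127 at 1 µM and 0.159% ± 0.00264 at 10 µM (SD, n = 4 each). The libraries of each concentration overlapped those of DMSO. Cardiac genes held 0.0323% ± 0.000456 in DMSO, 0.033% ± 0.00302 at 0.1 µM, 0.0354% ± 0.00254 at 1 µM and 0.0355% ± 0.00112 at 10 µM (SD, n = 4 each). Again all 4 libraries at 10 µM (0.0344% to 0.0367%) lay above all 4 in DMSO (0.0319% to 0.0327%). Those at 0.1 and 1 µM overlapped DMSO. Genes of all 3 muscle types thus had counts in every library.

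**Figure D1:**
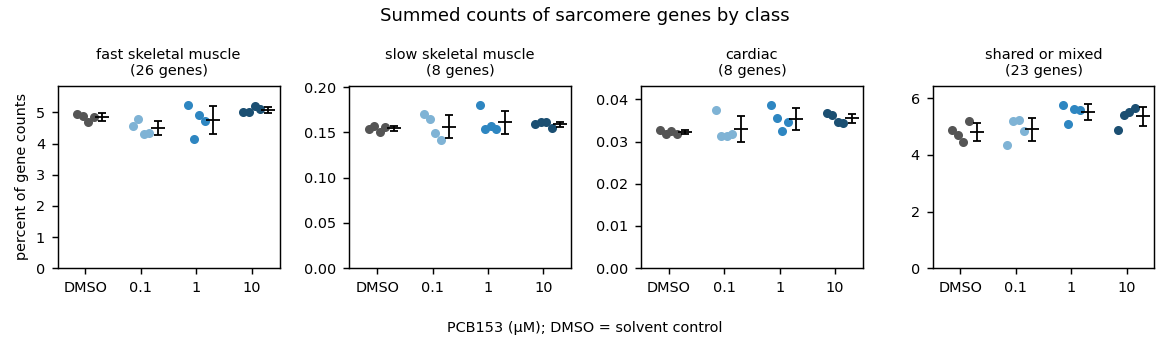
Percent of gene counts (y axis, starting at 0) taken by the summed counts of each class of sarcomere genes, by PCB153 concentration (x axis, µM). Points are the 4 libraries of a group and the black mark is their mean with its SD. The fast and cardiac shares at 10 µM lie above those of DMSO, and the slow shares overlap.

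Against DMSO 1 to 13 sarcomere genes passed the test, depending on the concentration. Both titin genes rose and a fast myosin and an alpha-actin gene fell at 1 and 10 µM, and a second actin gene fell at 1 µM. At 10 µM 4 genes of the cardiac class rose and 3 fast troponin genes fell. None of the 3 was the most strongly counted row of its symbol. The test was edgeR's quasi-likelihood F-test with Benjamini-Hochberg adjustment over all 21372 genes, and a gene past an adjusted p of 0.05 is said to have risen or fallen. At 0.1 µM 1 of 65 sarcomere genes rose and none fell (1.54%), beside 3.43% of all genes tested (2.30% higher and 1.14% lower). At 1 µM 5 rose and 3 fell (12.3%), beside 12.4% of all genes (7.13% higher and 5.27% lower). At 10 µM 8 rose and 5 fell (20.0%), beside 18.3% of all genes (9.90% higher and 8.45% lower). The share of sarcomere genes called was thus near that of the whole transcriptome at 1 and 10 µM in this fit. With the DMSO and 10 µM libraries fitted alone it was 25 of 64 (39.1%), beside 24.5% of all genes. Their median log2 fold change was -0.0888 at 0.1 µM, -0.0167 at 1 µM and 0.0709 at 10 µM, beside 0.0014, -0.00644 and -0.00759 for all genes. These 3 comparisons share the DMSO libraries. At 0.1 µM 1 of 65 sarcomere genes had all 4 libraries above all controls and 5 of 65 had them below, beside 5.03% and 4.96% of all genes. At 1 µM these counts were 4 of 65 and 3 of 65, beside 9.75% and 9.47% of all genes. At 10 µM they were 13 of 65 and 7 of 65, beside 13.2% and 11.7% of all genes.

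**Figure D2:**
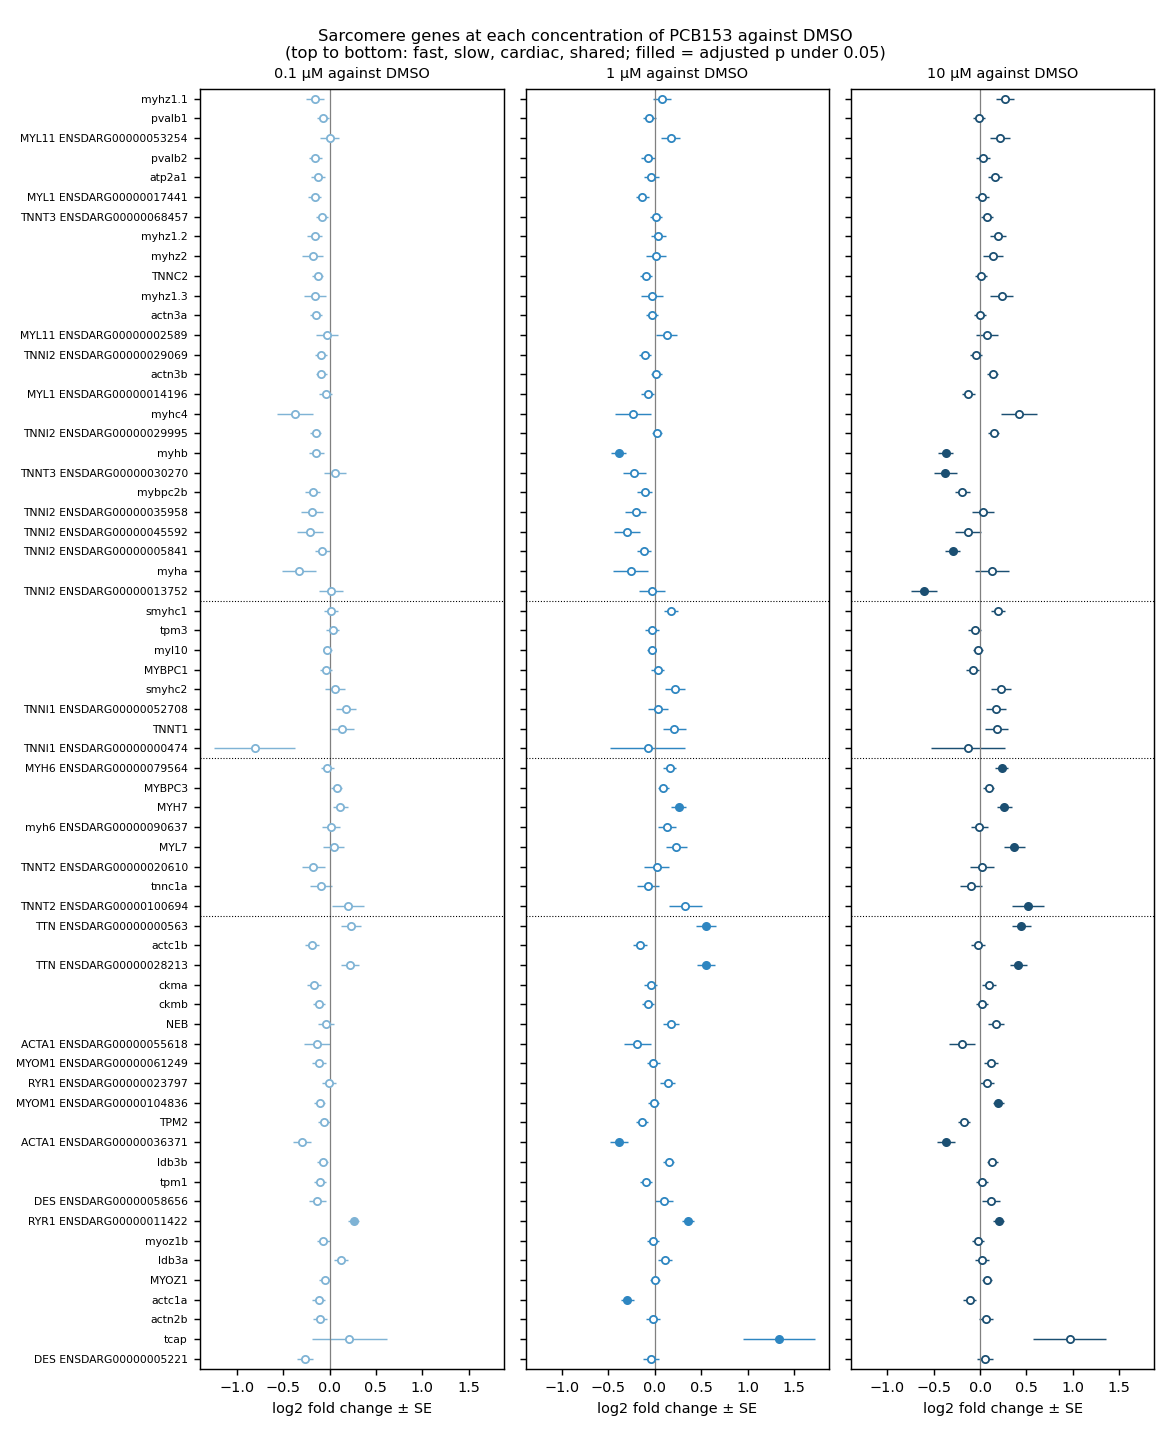
The log2 fold change of each of the 65 sarcomere genes against DMSO (x axis) with its standard error, at 0.1, 1 and 10 µM PCB153 from left to right. Genes (y axis) stand in their classes, fast, slow, cardiac and shared from top to bottom, each in order of mean CPM. Filled points passed an adjusted p of 0.05, and the filled points number 1, 8 and 13.

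Titin, the giant elastic protein that sets the length of the sarcomere, rose at both 1 and 10 µM. The gene TTN ENSDARG00000000563 stood at 10370, 9447, 8812 and 12000 CPM in the 4 DMSO libraries and at 10190, 12380, 13160 and 11890 CPM at 0.1 µM. It stood at 16890, 13210, 14330 and 14990 CPM at 1 µM and at 11450, 14120, 14480 and 15270 CPM at 10 µM. Every library at 1 µM lay above every control library, and at 10 µM replicate 1 alone fell within the control range. The log2 fold change was 0.55 ± 0.11 at 1 µM (SE, adjusted p = 0.00183) and 0.45 ± 0.10 at 10 µM (adjusted p = 0.00621), and 0.23 ± 0.10 at 0.1 µM did not pass (adjusted p = 0.268).

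The second titin gene followed the same values. TTN ENSDARG00000028213 had 10220, 9485, 8949 and 11730 CPM in DMSO, 10330, 12290, 12920 and 11610 CPM at 0.1 µM, 16820, 13110, 14250 and 15050 CPM at 1 µM and 11470, 13570, 14060 and 14710 CPM at 10 µM. Its log2 fold change was 0.55 ± 0.09 at 1 µM (SE, adjusted p = 0.000466) and 0.41 ± 0.09 at 10 µM (adjusted p = 0.00428). The counts of the first gene divided by those of the second ranged from 0.985 to 1.04 over the 16 libraries. In the order of protein-coding genes of the RefSeq assembly GRCz12tu the genes named ttn.1 and ttn.2 are direct neighbours. Reads that fit both copies equally are not in the counts, and the counts of the copies are not independent evidence.

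The titin genes together took 2.05% ± 0.258 of all gene counts in DMSO, 2.40% ± 0.235 at 0.1 µM, 2.95% ± 0.258 at 1 µM and 2.67% ± 0.281 at 10 µM (SD, n = 4 each). The other 63 sarcomere genes together took 7.80% ± 0.198, 7.19% ± 0.341, 7.52% ± 0.546 and 7.98% ± 0.139 in the same order (SD, n = 4 each). Titin thus made up 19.5% to 23.4% of the sarcomere counts in DMSO and 26.3% to 29.4% at 1 µM, without overlap. At 0.1 µM (23.1% to 27.4%) and at 10 µM (22.4% to 26.6%) the range overlapped that of DMSO. These are shares of reads, to which a long transcript gives many. When the outside-gene share entered the fit as a covariate, TTN ENSDARG00000000563 no longer passed at 1 µM (0.47 ± 0.15, adjusted p = 0.0841), while TTN ENSDARG00000028213 passed at 1 and 10 µM in all alternatives run.

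Genes of proteins that work along titin gave mixed values. The telethonin gene tcap, whose product caps titin at the Z-disc, stood at 23.09, 15.37, 14.13 and 13.45 CPM in DMSO and at 22.69, 10.52, 24.96 and 18.68 CPM at 0.1 µM. At 1 µM it stood at 74.64, 22.07, 51.68 and 23.07 CPM, and at 10 µM at 27.80, 30.34, 36.53 and 33.95 CPM. The libraries at 1 µM were split into a high and a low pair, the low pair within the control range, whereas all 4 at 10 µM lay above all controls. It rose by 1.34 ± 0.39 on the log2 scale at 1 µM (SE, adjusted p = 0.0429), and 0.96 ± 0.39 at 10 µM did not pass (adjusted p = 0.112). The call at 1 µM was lost without any single one of 11 libraries: DMSO replicates 2, 3 and 4, 0.1 µM replicates 1 and 4, 1 µM replicates 1 and 3, and 10 µM replicates 1 to 4 (adjusted p from 0.0504 to 0.111). It was also lost with no filter, with the covariate and with the libraries of the 2 groups alone (adjusted p = 0.0575, 0.216 and 0.132).

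Nebulin, the ruler of the thin filament, gave NEB 0.18 ± 0.08 at 1 µM and 0.17 ± 0.08 at 10 µM, which did not pass (SE, adjusted p = 0.187 and 0.170). Of the M-band genes, whose myomesin product ties thick filaments and titin together, MYOM1 ENSDARG00000104836 rose at 10 µM. It had 429.6, 420.1, 415.7 and 453.5 CPM in DMSO, 365.2, 421.2, 424.9 and 384.1 CPM at 0.1 µM, 439.4, 386.5, 454.7 and 426.1 CPM at 1 µM and 476.8, 486.8, 506.7 and 496.9 CPM at 10 µM. The libraries at 10 µM lay above all other 12 libraries. The change against DMSO was 0.20 ± 0.06 (SE, adjusted p = 0.0266), and leaving out DMSO replicate 1, 2 or 3, or else replicate 3 or 4 at 10 µM, ended the call (adjusted p from 0.0543 to 0.0763). The second gene, MYOM1 ENSDARG00000061249, gave 0.12 ± 0.07 at 10 µM and did not pass (adjusted p = 0.283).

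Fast myosin heavy chain genes, the motors of fast fibres, differed among themselves. The gene myhb fell at 1 and 10 µM. It had 191.9, 207.6, 177.1 and 199.8 CPM in DMSO, 180.2, 183.1, 190.4 and 150.7 CPM at 0.1 µM, 159.0, 154.6, 150.6 and 128.6 CPM at 1 µM and 161.2, 140.0, 138.8 and 160.2 CPM at 10 µM. All 8 libraries at 1 and 10 µM lay below all controls. The log2 fold change was -0.39 ± 0.08 at 1 µM (SE, adjusted p = 0.00188) and -0.37 ± 0.08 at 10 µM (adjusted p = 0.00202), and both passed in all alternatives run. At 0.1 µM it was -0.14 ± 0.08 and did not pass (adjusted p = 0.372).

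None of the other 6 fast myosin heavy chain genes passed against DMSO. In the order myhz2, myhc4, myha, myhz1.3, myhz1.2 and myhz1.1 they stand next to each other in RefSeq GRCz12tu, with no other protein-coding gene between them. Reads of near-identical copies may therefore be missing or misplaced, and single values within the cluster are uncertain. At 10 µM their changes ran from 0.13 ± 0.18 for myha to 0.42 ± 0.19 for myhc4, with 0.27 ± 0.10 for myhz1.1 (SE, adjusted p = 0.679, 0.153 and 0.0647). At 0.1 µM all 6 gave negative values, from -0.37 ± 0.19 for myhc4 to -0.16 ± 0.10 for myhz1.1 (SE, adjusted p = 0.354 and 0.455).

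**Figure D3:**
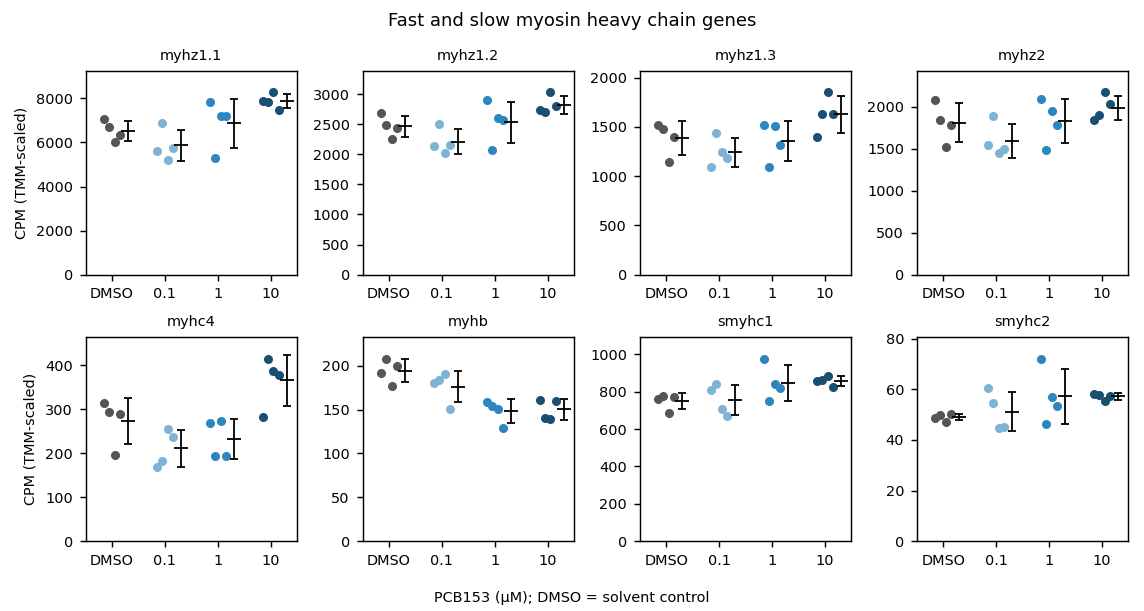
CPM (y axis, starting at 0) of 6 fast and 2 slow myosin heavy chain genes in each library, by PCB153 concentration (x axis, µM). Points are libraries and the black mark is the group mean with its SD (n = 4). The gene myhb is lower at 1 and 10 µM than in DMSO, and myhz1.1, myhz1.2 and myhc4 have their lowest means at 0.1 µM and their highest at 10 µM.

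Of the fast genes other than the myosin heavy chains, 3 troponin genes passed against DMSO, all of them lower at 10 µM. Among fast troponin I genes, whose product holds the thin filament off at rest, 2 of 6 fell at 10 µM. TNNI2 ENSDARG00000013752 had 9.842, 12.30, 13.73 and 12.56 CPM in DMSO, 13.31, 11.73, 11.41 and 12.60 CPM at 0.1 µM, 14.19, 13.78, 9.631 and 10.56 CPM at 1 µM and 6.363, 9.231, 9.622 and 6.897 CPM at 10 µM. All 4 libraries at 10 µM were below all other 12, the nearest by a narrow margin. It fell by 0.61 on the log2 scale at 10 µM (SE 0.14, adjusted p = 0.00486), and passed in all alternatives run. TNNI2 ENSDARG00000005841 had 29.09, 34.70, 33.27 and 30.43 CPM in DMSO and 24.11, 23.85, 28.54 and 27.43 CPM at 10 µM, again without overlap. Its change was -0.30 ± 0.08 (SE, adjusted p = 0.0114), and it was lost without 10 µM replicate 2 (adjusted p = 0.0531). The 4 other TNNI2 rows ranged from -0.13 to 0.14 at 10 µM and did not pass. Over all 16 libraries the 2 rows that fell had the lowest means of the 6, 11.11 and 29.4 CPM. The 4 others had means from 63.36 to 1030 CPM.

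Fast troponin T, which binds the complex to tropomyosin, gave one low gene. TNNT3 ENSDARG00000030270 had 123.4, 115.7, 101.3 and 116.2 CPM in DMSO and 80.31, 75.48, 101.0 and 94.41 CPM at 10 µM, the groups being separated by a narrow margin. It fell by 0.38 on the log2 scale (SE 0.12, adjusted p = 0.0463). The call was lost without any single one of 10 libraries, namely DMSO replicates 1, 2 and 4, replicates 1 and 3 at 0.1 µM and at 1 µM, and 10 µM replicates 1, 2 and 4 (adjusted p from 0.0563 to 0.132). It was also lost with no filter and with the covariate (adjusted p = 0.0720 and 0.0741). The more strongly counted TNNT3 ENSDARG00000068457 gave 0.08 ± 0.06 at 10 µM (SE, adjusted p = 0.443).

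Of the remaining fast genes none passed against DMSO at any concentration. The parvalbumin gene pvalb1 gave -0.07 ± 0.07, -0.06 ± 0.07 and -0.01 ± 0.07 at 0.1, 1 and 10 µM (SE, adjusted p = 0.666, 0.639 and 0.923). The regulatory light chain gene MYL11 ENSDARG00000053254 gave 0.22 ± 0.10 at 10 µM (SE, adjusted p = 0.162), and atp2a1, the calcium pump of fast fibres, gave 0.16 ± 0.08 (adjusted p = 0.154). The others (pvalb2, both MYL1 genes, the second MYL11 gene, TNNC2, actn3a, actn3b and mybpc2b) ranged from -0.19 to 0.13 at 10 µM. At 0.1 µM 24 of the 26 fast genes had a negative log2 fold change, with a median of -0.145 beside 0.0014 for all genes. None passed, and 5 had an unadjusted p under 0.05, all of them lower. Neither negative values nor that level of p was counted over all genes. DESeq2's Wald test called 0 fast genes there. Concentration and the share of reads outside genes cannot be told apart in that comparison.

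The actins, which form the thin filament, held another gene that fell. ACTA1 ENSDARG00000036371, an alpha-actin of skeletal muscle, had 392.4, 368.1, 344.2 and 326.9 CPM in DMSO, 263.5, 310.8, 309.6 and 277.5 CPM at 0.1 µM, 209.0, 283.9, 307.8 and 296.2 CPM at 1 µM and 260.1, 261.4, 287.0 and 299.9 CPM at 10 µM. Every exposed library lay below every control library. The log2 fold change was -0.30 ± 0.10 at 0.1 µM, -0.38 ± 0.10 at 1 µM and -0.37 ± 0.10 at 10 µM (SE, adjusted p = 0.104, 0.0146 and 0.0132), so that only the upper 2 concentrations passed. The call at 10 µM held in all alternatives run, and the call at 1 µM was lost with the covariate (adjusted p = 0.326).

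The cardiac-type actin gene actc1a had 59.78, 54.79, 52.67 and 57.15 CPM in DMSO, 45.52, 57.25, 56.73 and 47.50 CPM at 0.1 µM, 45.12, 43.99, 46.20 and 46.93 CPM at 1 µM and 51.57, 48.12, 55.37 and 52.64 CPM at 10 µM. It was below the controls in all 4 libraries at 1 µM and overlapped them at the other concentrations. It fell by 0.30 at 1 µM on the log2 scale (SE 0.07, adjusted p = 0.00688), and the call was lost with the covariate (adjusted p = 0.0956). The duplicate actc1b gave -0.19 ± 0.08, -0.16 ± 0.08 and -0.03 ± 0.08 at 0.1, 1 and 10 µM and did not pass (SE, adjusted p = 0.194, 0.184 and 0.859). The second ACTA1 gene, ENSDARG00000055618, gave -0.20 ± 0.14 at 10 µM (adjusted p = 0.374). Of the tropomyosins, which lie along actin and gate myosin binding, TPM2 gave -0.18 ± 0.06 and tpm1 0.02 ± 0.07 at 10 µM (SE, adjusted p = 0.0539 and 0.855).

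The ryanodine receptor gene RYR1 ENSDARG00000011422, the calcium release channel, was the sarcomere gene called at all 3 concentrations. It had 142.0, 143.3, 148.5 and 157.7 CPM in DMSO, 167.4, 184.9, 183.2 and 174.0 CPM at 0.1 µM, 204.2, 190.2, 179.1 and 185.4 CPM at 1 µM and 152.1, 170.5, 175.6 and 180.9 CPM at 10 µM. The libraries at 0.1 and 1 µM all lay above the controls, and replicate 1 at 10 µM lay within them. It rose by 0.26 ± 0.06, 0.36 ± 0.06 and 0.20 ± 0.06 on the log2 scale at 0.1, 1 and 10 µM (SE, adjusted p = 0.0145, 0.000324 and 0.0247). The call at 0.1 µM ended when DMSO replicate 1 or 2 was left out (adjusted p from 0.0521 to 0.0541) and with the covariate (0.404). That at 1 µM was lost with the covariate (adjusted p = 0.0592), and that at 10 µM when DMSO replicate 1, 2 or 3 was left out, or replicate 2, 3 or 4 of the exposed group (adjusted p from 0.0513 to 0.0869). The other row, RYR1 ENSDARG00000023797, gave -0.01 ± 0.08, 0.14 ± 0.08 and 0.07 ± 0.08 (SE, adjusted p = 0.980, 0.278 and 0.574). The listed name ryr1b matched these 2 rows, and which of them is ryr1b cannot be told from the symbol.

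**Figure D4:**
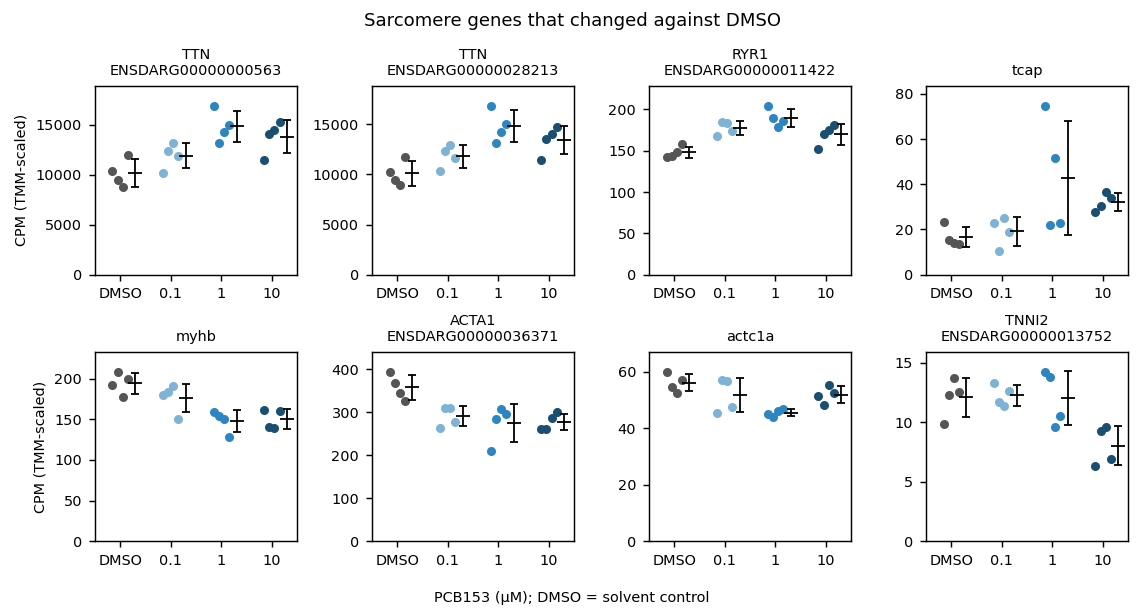
CPM (y axis, starting at 0) of 8 sarcomere genes that passed the test against DMSO at 1 or more concentrations, by PCB153 concentration (x axis, µM). Points are libraries and the black mark is the group mean with its SD (n = 4). The titin genes are above DMSO at 1 µM and, but for replicate 1, at 10 µM, RYR1 is above DMSO at 0.1 and 1 µM, tcap is spread at 1 µM, and myhb, ACTA1 and TNNI2 lie lower at 10 µM.

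Of the other shared genes, the desmin genes (intermediate filaments around the Z-disc), creatine kinase genes ckma and ckmb, ldb3a and ldb3b (Z-disc scaffold), MYOZ1 and myoz1b (calcineurin-binding Z-disc proteins) and actn2b (alpha-actinin, which cross-links actin) did not pass against DMSO. At 10 µM they ranged from -0.02 for myoz1b to 0.13 for ldb3b.

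Slow muscle genes did not pass in any of the 6 comparisons. The slow myosin gene smyhc1 had 759.3, 779.2, 687.6 and 771.7 CPM in DMSO, 808.9, 841.5, 705.9 and 669.5 CPM at 0.1 µM, 974.9, 750.1, 840.6 and 820.1 CPM at 1 µM and 857.9, 864.5, 884.6 and 824.6 CPM at 10 µM. All 4 libraries at 10 µM were above all controls, and the change of 0.20 ± 0.08 did not pass (SE, adjusted p = 0.0790). Its neighbour smyhc2 gave 0.22 ± 0.11 (adjusted p = 0.163). Tropomyosin 3 and the light chain myl10 were level, tpm3 at -0.06 ± 0.07 and myl10 at -0.02 ± 0.05 at 10 µM (SE, adjusted p = 0.631 and 0.804). Among MYBPC1, TNNT1 and the 2 TNNI1 genes the changes at 10 µM ran from -0.13 to 0.18, and TNNI1 ENSDARG00000000474 was under 1 CPM in every library. By edgeR 1 slow gene had an unadjusted p under 0.05 in each of 4 comparisons (1 and 10 µM against DMSO, and both against 0.1 µM). None had in the remaining comparisons, and this level was not counted over all genes. DESeq2's Wald test called 0 slow genes in all 6 comparisons.

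Cardiac genes rose at 10 µM or did not pass. Of the 8 genes 4 rose and none fell, where 9.90% of all genes rose. The median log2 fold change of the 8 was 0.162. Those that rose all carry a human-form symbol, so some may not be the cardiac gene of the list. The rows with a zebrafish symbol, myh6 ENSDARG00000090637 and tnnc1a, did not pass. MYH6 ENSDARG00000079564 is a myosin heavy chain gene that carries the human form of the symbol, and which zebrafish gene it is cannot be told from that symbol. The row with the zebrafish symbol is myh6 ENSDARG00000090637. MYH6 ENSDARG00000079564 had 138.9, 131.0, 126.9 and 130.3 CPM in DMSO, 150.9, 125.5, 117.8 and 123.4 CPM at 0.1 µM, 167.2, 138.1, 137.2 and 146.8 CPM at 1 µM and 154.2, 162.0, 152.7 and 149.7 CPM at 10 µM. The libraries at 10 µM lay above the controls. It rose by 0.23 ± 0.07 on the log2 scale at 10 µM (SE, adjusted p = 0.0255).

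The gene named MYH7, a further cardiac-type myosin heavy chain, had 51.82, 48.64, 45.20 and 46.84 CPM in DMSO, 61.10, 44.78, 46.55 and 56.10 CPM at 0.1 µM, 64.50, 56.15, 54.26 and 55.85 CPM at 1 µM and 61.42, 58.12, 52.51 and 58.32 CPM at 10 µM. All 8 libraries at 1 and 10 µM lay above the controls, and those at 0.1 µM overlapped them. It rose by 0.26 ± 0.08 at both 1 and 10 µM on the log2 scale (SE, adjusted p = 0.0491 and 0.0340). MYL7, the regulatory light chain of the heart, had 15.99, 14.82, 15.93 and 16.40 CPM in DMSO, 19.51, 13.81, 15.16 and 16.80 CPM at 0.1 µM, 23.70, 17.48, 15.97 and 17.99 CPM at 1 µM and 20.70, 22.91, 17.29 and 20.69 CPM at 10 µM. Its libraries at 10 µM lay above the controls, with a change of 0.37 ± 0.11 (SE, adjusted p = 0.0252). TNNT2 ENSDARG00000100694, 1 of 2 rows with the symbol of cardiac troponin T, had 2.678, 3.757, 3.000 and 2.947 CPM in DMSO. At 10 µM it had 4.220, 5.385, 4.811 and 3.372 CPM, and the groups overlapped. Its change was 0.51 ± 0.17 (SE, adjusted p = 0.0382).

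The other cardiac genes gave smaller values at 10 µM. They were 0.09 ± 0.06 for MYBPC3, -0.01 ± 0.10 for myh6 ENSDARG00000090637, 0.02 ± 0.13 for TNNT2 ENSDARG00000020610 and -0.10 ± 0.12 for tnnc1a (SE, adjusted p = 0.281, 0.973, 0.926 and 0.622). Each cardiac call was lost when any 1 of several libraries was left out. That of MYH6 at 10 µM ended when DMSO replicate 2, 3 or 4 was left out, or exposed replicate 1 or 2 (adjusted p from 0.0557 to 0.0804). For MYL7 the libraries were DMSO replicates 2 and 3 and exposed replicates 1, 2 and 4 (0.0535 to 0.0962), and for MYH7 DMSO replicates 2 to 4 and exposed replicates 1, 2 and 4 (0.0641 to 0.109). For TNNT2 they were DMSO replicates 1, 3 and 4 and exposed replicates 1 to 3 (0.0634 to 0.140). With the covariate MYH7 and TNNT2 did not pass at 10 µM (adjusted p = 0.0585 and 0.0543). The call of MYH7 at 1 µM was lost without any one of 10 libraries, DMSO replicates 2 to 4, all 4 at 1 µM and 10 µM replicates 1, 2 and 4 (0.0530 to 0.147), with no filter (0.0636) and with the covariate (0.173).

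**Figure D5:**
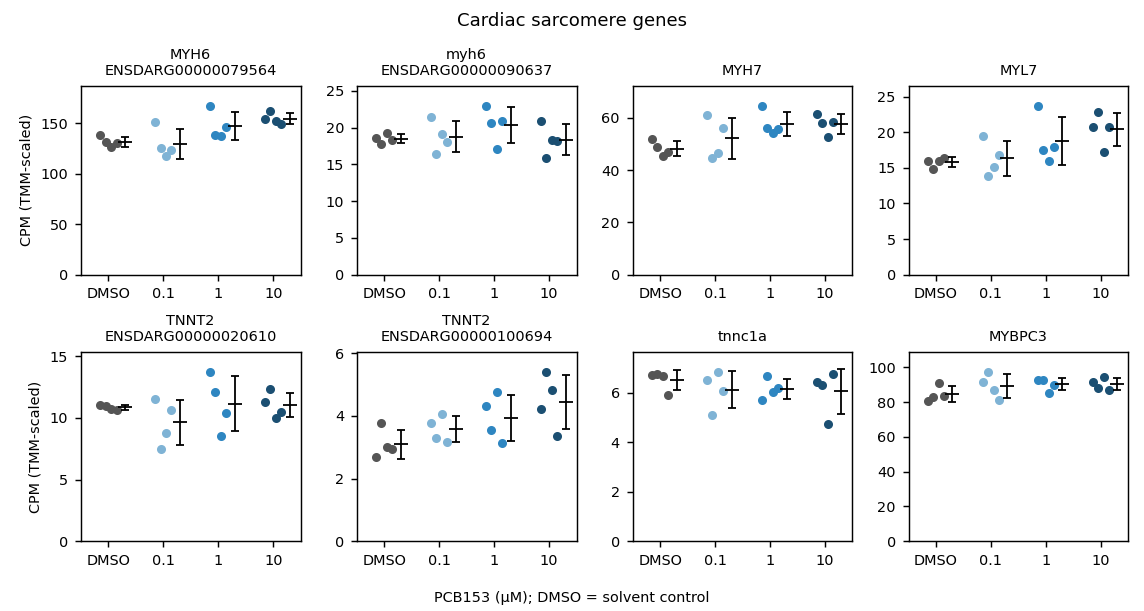
CPM (y axis, starting at 0) of the 8 cardiac sarcomere genes in each library, by PCB153 concentration (x axis, µM). Points are libraries and the black mark is the group mean with its SD (n = 4). MYH6 ENSDARG00000079564, MYH7 and MYL7 at 10 µM lie above all DMSO libraries, and the other 5 overlap.

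The concentrations were also compared with each other. Between 0.1 and 1 µM no sarcomere gene passed by edgeR, beside 0.973% of all genes (0.538% higher and 0.435% lower at 1 µM). By edgeR 15 had an unadjusted p under 0.05, a level that was not counted over all genes. DESeq2's Wald test called 2 of 63 sarcomere genes (3.17%), beside 3.47% of all genes in that test. Between 1 and 10 µM 1 rose and 1 fell (3.08%), beside 6.15% of all genes (3.11% higher and 3.05% lower). These were MYOM1 ENSDARG00000104836, at 0.20 ± 0.06, and TNNI2 ENSDARG00000013752, at -0.58 ± 0.14 (SE, adjusted p = 0.0434 and 0.0225). The call of MYOM1 was lost without any one of 10 libraries (DMSO replicates 1 to 4, 1 µM replicates 2 and 4, and 10 µM replicates 1 to 4, adjusted p from 0.0512 to 0.157) and with the libraries of those groups alone (0.0584), and that of TNNI2 when replicate 1 or 2 at 1 µM, or 1 or 4 at 10 µM, was left out (0.0523 to 0.0942).

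Between 0.1 and 10 µM fast muscle genes were among those that differed, with 5 fast myosin genes higher and 1, myhb, lower at 10 µM. Of 65 sarcomere genes 15 were higher and 3 lower at 10 µM (27.7%), beside 21.4% of all genes tested (10.8% higher and 10.6% lower). All 4 libraries at 10 µM lay above all 4 at 0.1 µM for 15 of the 65 genes and below for 2, beside 11.7% and 9.49% of all genes. Of the 26 fast genes 8 were higher and 3 lower (42.3%), of the 23 shared genes 5 were higher, of the 8 cardiac genes 2 were higher, and no slow gene passed. The median log2 fold change was 0.169 for fast and 0.154 for all sarcomere genes, beside -0.00583 for all genes. The largest rises were among fast myosins. The gene myhc4 had 169.1, 181.1, 255.8 and 237.4 CPM at 0.1 µM and 282.8, 414.1, 387.1 and 378.4 CPM at 10 µM, without overlap (0.79 ± 0.19, SE, adjusted p = 0.0115). The gene myhz1.1 had 5630, 6867, 5199 and 5766 CPM at 0.1 µM and 7870, 7820, 8268 and 7492 CPM at 10 µM, also without overlap (0.42 ± 0.10, adjusted p = 0.00504).

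Smaller rises from 0.1 to 10 µM were those of myhz1.2 (0.35 ± 0.08), myhz1.3 (0.39 ± 0.12) and myhz2 (0.32 ± 0.11), with adjusted p of 0.00496, 0.0281 and 0.0469. Further fast genes were atp2a1 at 0.28 ± 0.08, actn3b at 0.22 ± 0.06 and TNNI2 ENSDARG00000029995 at 0.30 ± 0.06 (SE, adjusted p = 0.0117, 0.0105 and 0.00123). Shared genes were both MYOM1 genes (ENSDARG00000104836 at 0.30 ± 0.06 and ENSDARG00000061249 at 0.23 ± 0.07), ckma at 0.26 ± 0.07, DES ENSDARG00000005221 at 0.32 ± 0.09 and ldb3b at 0.20 ± 0.06 (SE, adjusted p from 0.00134 to 0.0253). Of the cardiac genes MYL7 gave 0.32 ± 0.11 and MYH6 ENSDARG00000079564 0.26 ± 0.07 (adjusted p = 0.0436 and 0.0122). The lower genes were myhb at -0.23 ± 0.08, TNNI2 ENSDARG00000013752 at -0.62 ± 0.14 and TNNT3 ENSDARG00000030270 at -0.44 ± 0.12 (SE, adjusted p = 0.0392, 0.0039 and 0.0216).

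The share of reads outside genes did not overlap between these groups (36.2% to 38.6% at 0.1 µM and 31.7% to 33.3% at 10 µM). With that share as a covariate none of the 18 genes passed by edgeR, and the median of the 65 was 0.0948. An unadjusted p under 0.05, a level not counted over all genes, was reached by 7 of 65. Over all genes 1.29% passed in that fit, so a count of 0 of 65 is near the background. Concentration and that share cannot be told apart here. Markers of other tissues moved in the same comparison, in which 10.8% of all genes were higher and 10.6% lower at 10 µM. Of 8 exocrine pancreas markers 5 were higher at 10 µM (summed level 2390 to 4060 CPM at 0.1 µM and 5370 to 6560 CPM at 10 µM), and of 10 neuron markers 5 were higher (1340 to 1400 and 1490 to 1530 CPM). Of 9 epidermis markers 5 were lower (9570 to 11900 and 8500 to 9480 CPM), of 8 liver markers 3 (1740 to 2120 and 1320 to 1640 CPM) and of 7 cartilage and bone markers 3 (3910 to 4710 and 3220 to 3920 CPM). Their part in the muscle values was not tested. Leaving out 0.1 µM replicate 3 cut the count to 11 of 65 (16.9%), beside 16.6% of all genes in that fit. Single calls ended, with an adjusted p of up to 0.153, when 1 library was left out. For MYL7 these were all 4 DMSO libraries, 0.1 µM replicates 2 to 4, 1 µM replicates 2 and 4, and 10 µM replicates 1, 2 and 4. For myhz2 they were DMSO replicates 2 and 4, 0.1 µM replicates 1, 3 and 4, 1 µM replicates 3 and 4 and all 4 at 10 µM. For myhz1.3 they were 0.1 µM replicates 1, 3 and 4 and 10 µM replicates 2 to 4, and for myhb 0.1 µM replicates 1 to 3, 1 µM replicate 3 and 10 µM replicates 2 and 3. For MYOM1 ENSDARG00000061249 they were replicates 1 and 4 at 0.1 µM and 3 and 4 at 10 µM, for ldb3b replicate 3 at 0.1 µM and 4 at 10 µM, and for TNNT3 replicates 1 and 2 at 10 µM. For ckma and MYH6 it was replicate 3 at 0.1 µM, and for DES replicate 2 at 0.1 µM. With no filter on low counts myhz1.3 and myhz2 did not pass (adjusted p = 0.0503 and 0.0772), and with the libraries of these groups alone MYL7, myhb and TNNT3 did not (0.0620, 0.0566 and 0.0758).

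Other muscle genes were counted from lists that hold none of the 65 sarcomere genes. The lists were chosen with earlier results of these data known, so their counts are descriptions and not an independent test. Over all genes tested 9.90% rose and 8.45% fell at 10 µM against DMSO. At 1 µM these shares were 7.13% and 5.27%, and at 0.1 µM 2.30% and 1.14%. The list of muscle proteolysis and atrophy, with 12 tested genes, had 7 that rose and none that fell at 10 µM against DMSO, with a median log2 fold change of 0.457 beside -0.00759 for all genes. At 1 µM 2 rose, and at 0.1 µM 1 rose. The transcription factor genes foxo3b and FOXO1, which drive atrophy genes in mammalian muscle and act in many other tissues, had the smallest p of this list at 10 µM. The gene foxo3b went from 197 ± 0.664 CPM in DMSO to 246 ± 7.07, 297 ± 19.5 and 305 ± 13.3 CPM at 0.1, 1 and 10 µM (SD, n = 4 each, edgeR adjusted p = 0.000837, 9.99e-08 and 2.47e-08). FOXO1 ENSDARG00000099555 went from 54.7 ± 1.23 CPM to 87.2 ± 3.6 CPM at 10 µM (SD, n = 4, edgeR adjusted p = 8.3e-07), and KLF15, a glucocorticoid-induced factor in mammals, from 78.9 ± 6.36 to 128 ± 11.9 CPM (adjusted p = 0.000249).

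Muscle energy metabolism had 8 of 19 genes that rose and none that fell at 10 µM, with a median of 0.203. PFKM ENSDARG00000014179, the muscle phosphofructokinase of glycolysis, rose by 0.61 ± 0.08 (SE, edgeR adjusted p = 3.81e-05). AMPD1, the AMP deaminase of muscle, rose by 0.41 ± 0.07 (adjusted p = 0.000491). PHKG1 ENSDARG00000069498, a subunit of phosphorylase kinase, rose by 0.64 ± 0.10 (adjusted p = 6.36e-05). At 1 µM 2 rose and 1 fell. Of 34 tested genes for other sarcomere and Z-disc proteins 7 rose and none fell at 10 µM, with a median of 0.099. FHL1 ENSDARG00000056653, a LIM protein of the sarcomere, went from 10.5 ± 1.02 to 18.6 ± 1.07 CPM at 10 µM (SD, n = 4, adjusted p = 5.9e-06). The actin nucleator gene lmod3 rose by 0.68 ± 0.10 at 1 µM and 0.46 ± 0.10 at 10 µM (SE, adjusted p = 9.9e-05 and 0.00283). XIRP2 ENSDARG00000071113, an actin-binding protein of the Z-disc and intercalated disc, rose at 0.1 and 1 µM (0.30 ± 0.08 and 0.41 ± 0.08, adjusted p = 0.0458 and 0.0021). It gave 0.19 ± 0.08 at 10 µM (adjusted p = 0.117). Other rows of these lists that share the symbols PFKM, PHKG1, FHL1 and XIRP2 are not given singly.

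The list of 9 chaperones of myosin folding and stress had 2 genes that rose at 10 µM. HSP90AA1 ENSDARG00000024746 went from 37.6 ± 2.87 CPM in DMSO to 74.9 ± 8.60 CPM (SD, n = 4, edgeR adjusted p = 9.74e-06), and HSPB7 rose by 0.53 ± 0.10 on the log2 scale (SE, adjusted p = 0.000777). At 1 µM the 2 that rose were BAG3 (0.61 ± 0.10) and HSPB7 (0.39 ± 0.10), with adjusted p of 0.000362 and 0.0145. Of 18 myogenic regulators 1 rose and 4 fell at 10 µM. MYF6, a late myogenic factor, went from 4.47 ± 0.0769 CPM to 2.39 ± 0.488 at 1 µM and 3.26 ± 0.444 at 10 µM (SD, n = 4, adjusted p = 0.000469 and 0.0344), and MEF2D rose by 0.26 ± 0.05 at 10 µM (adjusted p = 0.0009).

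In the remaining lists most genes did not pass. Of 29 genes of excitation-contraction coupling and the neuromuscular junction 1 rose and 1 fell at 10 µM, the sodium channel genes scn4ab (0.33 ± 0.07) and scn4aa (-0.82 ± 0.16), with adjusted p of 0.00216 and 0.00112. Of 15 dystrophin complex and costamere genes none rose and 4 fell at 10 µM. COL6A2 and COL6A3, collagens of the muscle and other connective tissue, each gave -0.29 ± 0.06, and lama4, a basement membrane laminin, gave -0.19 ± 0.06 (SE, edgeR adjusted p = 0.00358, 0.00246 and 0.0228). Of 12 tested heart regulators 1 rose and 1 fell, the natriuretic peptide gene nppa at 0.47 ± 0.14 and TBX2 ENSDARG00000006120 at -0.25 ± 0.07 (SE, adjusted p = 0.0218 and 0.0111). The lists are read against the same background of 18.3% of all genes called at 10 µM. Some of these genes are also expressed outside muscle, and the tissue behind each value was not tested.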

How the data were processed

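Total RNA of whole larvae was sequenced after ribosomal RNA removal with a stranded kit, per the labels' protocols. The deposited values are whole-number read counts per Ensembl gene, without normalization, for 16 libraries. Trimmomatic, HTSeq and edgeR are named, with the build GRCz10, per the submitters' processing notes, and the aligner is not given in the sources used here. Reads not uniquely placed were 26.95% to 57.7% of entries and stayed uncounted. They were 26.95% to 33.52% in DMSO, 28.1% to 57.7% at 0.1 µM, 31.33% to 40.71% at 1 µM and 36.58% to 41.5% at 10 µM. This share did not overlap between DMSO and 10 µM, and its part in the results was not tested. Symbols were found for 26269 identifiers. No sequence was used, and RefSeq gene positions served only for the order of genes.

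Counts were filtered with filterByExpr by group, scaled with TMM and compared with edgeR 4.0.16 in R 4.3.3 (robust quasi-likelihood F-tests, 1 fit of 16 libraries, group only, adjusted p under 0.05). SE is the log2 fold change over the root of F, and CPM uses TMM-scaled sizes. The common biological coefficient of variation was 0.0847. No 2 libraries of a group agreed within sampling noise. The procedure was tested on simulated data.

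The members and lists were chosen with earlier results of these data known. Named were members past the threshold in any comparison, the 3 highest in mean CPM per class and the 3 of smallest p per comparison, and up to 3 called genes a list; other members are given so that each is accounted for. Alternatives were DESeq2 1.42.0 size factors and Wald test, members left out of scaling, no filter, a replicate block, the 2 groups alone, reads outside genes as covariate and leaving out each library. Intervals and SEs cover only what these libraries show.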

Additional observations from a re-analysis of the deposited data

Results flagged for a closer look

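Of 156 groups of 4 libraries that were checked for a library far from the other 3 by Dixon's test, 4 held one, and chance flags about 1 in 20. DES ENSDARG00000005221 stood at 32.93 CPM in DMSO replicate 1 beside 26.74 to 27.36 CPM in the other DMSO libraries. The parvalbumin gene pvalb1 stood at 6919 CPM in replicate 4 at 10 µM beside 6256 to 6298 CPM. The slow muscle genes took 0.180% of gene counts in replicate 1 at 1 µM beside 0.154% to 0.157%. The cardiac genes took 0.0375% of gene counts in replicate 1 at 0.1 µM beside 0.0312% to 0.0319%. That library at 1 µM also had the lowest total, 8069225 gene counts. The part of depth in its value was not tested.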

How the results depend on the processing

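No called result reversed in direction. When the outside-gene share of reads was a covariate, the counts of called sarcomere genes were 0 at 0.1 µM and 2 at 1 µM against DMSO. They were 0 between 1 and 10 µM and 0 between 0.1 and 10 µM, while 10 µM against DMSO gave 10. By edgeR 1, 1 and 7 genes had an unadjusted p under 0.05 in the comparisons with a count of 0, a level not counted over all genes. Over all genes 0.969%, 5.03%, 0.248%, 1.29% and 16% passed in that fit, in the same order of comparisons. With the libraries of the 2 groups alone the count was 2 of 64 at 0.1 µM against DMSO (3.12%, beside 2.31% of all genes in that fit). It was 25 of 64 at 10 µM against DMSO (39.1%, beside 24.5%) and 1 of 64 between 1 and 10 µM (1.56%, beside 6.29%). DESeq2's Wald test gave 2 of 63 between 0.1 and 1 µM (3.17%, beside 3.47% of all genes). An alternative added after seeing the data kept only the 42 rows found under the member's own symbol, read without regard to case. These rows include human-form symbols in capitals. This alternative gave 0, 4 and 4 of 42 at 0.1, 1 and 10 µM against DMSO, beside 3.43%, 12.4% and 18.3% of all genes. It gave 0 of 42 between 1 and 10 µM and 13 of 42 between 0.1 and 10 µM, beside 6.15% and 21.4% of all genes. The replicate block gave 1 between 1 and 10 µM in place of 2 (beside 5.74% of all genes in that fit). In the other comparisons it gave 1, 8, 13, 0 and 17, beside 3.22%, 12.2%, 17.9%, 1.04% and 20.5% of all genes. It ended the calls of myhz1.3 and myhz2 between 0.1 and 10 µM (adjusted p = 0.061 and 0.0742), of TNNT3 ENSDARG00000030270 at 10 µM against DMSO (0.0727) and of MYOM1 ENSDARG00000104836 between 1 and 10 µM (0.0536), and no other call of a sarcomere gene. Same-numbered libraries correlated from -0.178 to 0.229 in their deviations from group means, and differently numbered libraries from -0.242 to 0.154. These weak correlations cannot decide whether a number marks a shared clutch or batch. Leaving out each library gave 0 to 2 at 0.1 µM, 6 to 8 at 1 µM and 6 to 15 at 10 µM against DMSO, 0 to 3 between 0.1 and 1 µM, 0 to 2 between 1 and 10 µM and 11 to 21 between 0.1 and 10 µM. Over all genes 1.92% to 5.21%, 8.43% to 14.2% and 12% to 20.5% passed against DMSO, in the same order. Between concentrations 0.149% to 2.94%, 2.46% to 7.63% and 13.8% to 23.8% of all genes passed. The count at 10 µM against DMSO was 7 without DMSO replicate 2 or 3 (10.9% and 10.8%, beside 13.8% and 13.4% of all genes). It was 8 without 10 µM replicate 1 or 4 (12.3% each, beside 12.8% and 15.4%). Without 10 µM replicate 2 it was 6 (9.23%, beside 12%). The count at 0.1 µM was 0 without DMSO replicate 1 or 2, beside 2.38% and 2.45% of all genes. It was 2 without 1 µM replicate 1 (3.08%, beside 3.89%). The cause of these changes was not tested. Scaling by DESeq2 size factors, or without the sarcomere genes, left every count as it was.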
